A study of Mus musculus with 14 samples.

Results

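The 10 genes described here encode the parts that put peptides on MHC class I molecules: the light chain B2m, the heavy chains H2-K1, H2-D1, H2-Q4 and H2-Q7, the peptide transporter subunits Tap1 and Tap2, and the immunoproteasome subunits Psmb8, Psmb9 and Psmb10. They were chosen by name, as the listed class I, transport and immunoproteasome genes, and all 10 were found among the 41739 genes of the table. The proteasome cuts cytosolic proteins into peptides, TAP carries the peptides into the endoplasmic reticulum, and a heavy chain that has paired with B2m takes a peptide to the cell surface for CD8 T cells to inspect. Interferons are known to raise all of these genes, through IRF and STAT factors and through the class I transactivator Nlrc5. They also lead cells to swap the constitutive catalytic subunits Psmb6, Psmb7 and Psmb5 for Psmb9, Psmb10 and Psmb8. Resting microglia, the resident macrophages of the brain, carry little MHC class I at their surface and raise it in inflammation.

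Expression was measured by RNA sequencing of microglia taken from mouse brain with magnetic beads, in 14 libraries of 4 groups. WT mice were Rheb F/F, with floxed alleles of Rheb, the small GTPase that activates mTORC1, and no Cre. KO mice were Rheb F/F; Tmem119-cre ER, in which tamoxifen activates a Cre driven from the microglial Tmem119 locus. All mice were 8 weeks old, were given tamoxifen, and were then injected into the peritoneum on 4 days with PBS or with LPS (bacterial lipopolysaccharide, which activates TLR4) at 1.0 mg/kg. There were 3 WT PBS libraries (named WT904, WT913 and WT914), 3 KO PBS libraries (named KO911, KO912 and KO915), 4 WT LPS and 4 KO LPS libraries (each numbered 1 to 4). Cre was present in all KO and no WT libraries, so an effect of Cre or of the Tmem119 allele cannot be told apart from one of Rheb. Whether each library is a different animal is not stated in the labels, and the p-values reflect the spread of these libraries alone.

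The deposited values are TPM, reads per gene divided by gene length and scaled to the same total in each library, so levels can be set side by side between genes. Read totals, estimated from the TPM values, ran from 8.0 in the shallowest library (KO LPS) to 32.3 in the deepest (WT LPS), in units of 1000000 reads. Rheb itself was at 29.7 to 34.5 TPM in WT PBS and 16.6 to 19.1 TPM in KO PBS (adjusted p = 0.0163), and at 25.1 to 33.6 TPM in WT LPS and 19.5 to 25.5 TPM in KO LPS (adjusted p = 0.11). The microglia markers were high in every library, with a sum over 12 genes of 14416 to 36409 TPM. Although the series text gives female mice, the PBS libraries held 111 to 146 TPM of the male transcript Ddx3y and the LPS libraries no more than 0.27 TPM. The female transcript Xist stood at no more than 0.147 TPM under PBS and at 255 to 574 TPM under LPS. The LPS and PBS libraries therefore differ in sex as well as in treatment, and in every comparison of LPS with PBS below the treatment and the sex cannot be told apart. Pituitary hormone transcripts made up 89145 TPM of the WT PBS library WT914 and 32079.6 TPM of KO LPS 3, against at most 182 TPM elsewhere, and results were also computed without those libraries.

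The regulatory DNA of the class I genes is shown first, to set the promoters of the heavy chain genes, which were called together below, beside each other. RefSeq promoter sequence (GRCm38.p6) was at hand for 9 of the 10 genes, and the entry for Tap2 was missing. The 250 bases before each start were searched on both strands for the kappaB letters GGGANTNNCC, bound by NF-kB, the ISRE letters GAAANNGAAA, bound by IRF and STAT complexes, the GAS letters TTCNNNGAA, an element of interferon-responsive promoters, and CCAAT, bound by NF-Y. The kappaB letters were chosen knowing the site of H2-K1, and the heavy chain promoters resemble one another, so these matches are not independent of each other. The 5 promoters with kappaB letters were those of B2m and all 4 heavy chain genes, and each is printed 5′ to 3′ on the strand of its gene, with the kappaB letters, and in B2m also the ISRE letters just before them, in capitals.
H2-K1 (chr17:34000419-34000478, minus strand): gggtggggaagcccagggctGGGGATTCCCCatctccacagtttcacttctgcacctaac
H2-D1 (chr17:35262903-35262962, plus strand): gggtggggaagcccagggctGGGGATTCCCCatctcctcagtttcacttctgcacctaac
H2-Q4 (chr17:35379424-35379483, plus strand): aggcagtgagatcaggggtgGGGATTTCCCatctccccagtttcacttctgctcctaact
H2-Q7 (chr17:35439002-35439061, plus strand): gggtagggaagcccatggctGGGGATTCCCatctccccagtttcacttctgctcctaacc
B2m (chr2:122147541-122147600, plus strand): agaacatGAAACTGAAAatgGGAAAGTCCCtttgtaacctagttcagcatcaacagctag

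The kappaB letters began 111 bases before the start in H2-K1, 171 in H2-D1, 173 in H2-Q4, 133 in H2-Q7 and 126 in B2m, counting from the first start listed for each gene. H2-K1 has a pair of starts in the RefSeq promoter table, and its window lies before both, although the gene model as a whole reaches beyond the window to base 34000619. Where the capitals run to 11 bases, in H2-K1 and H2-D1, a match on either strand overlaps the other. Of all 27025 promoters searched in the same way, 3.4% held the kappaB letters, 3.04% the ISRE letters, 7.18% the GAS letters and 34.5% CCAAT. Downstream of the kappaB letters the 4 heavy chain windows share a run of 15 bases, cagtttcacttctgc, which 0.0222% of all promoters hold and which the ISRE letters as spelled here do not match. That run was picked as the longest that these windows share, and the 4 genes are among the 6 promoters that hold it. Its rarity is therefore a description and no test. The GAS letters were found in Psmb8 alone, and CCAAT in 7 of the 9 promoters. None of these letters but CCAAT stood before Psmb9 or Tap1, and none at all before Psmb10, which says only that these letters are not in those windows.

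Psmb9 and Tap1 lie head to head and share the bases between their starts. That interval, 225 bases at chr17:34187331-34187555, is printed on the strand of Tap1, with CCAAT, which lies 4 bases before the start of Psmb9, in capitals.
Psmb9-Tap1 interval: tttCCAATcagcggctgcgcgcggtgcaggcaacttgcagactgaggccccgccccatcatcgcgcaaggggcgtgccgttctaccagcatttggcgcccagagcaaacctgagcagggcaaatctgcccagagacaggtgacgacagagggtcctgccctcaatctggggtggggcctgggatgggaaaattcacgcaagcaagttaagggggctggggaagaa

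In RefSeq, 8 of the 10 genes lie on chromosome 17 within the mouse MHC, with Psmb9, Tap1, Psmb8 and Tap2 next to each other between bases 34182030 and 34216321. B2m is on chromosome 2 and Psmb10 on chromosome 8. The heavy chain genes are close copies: of all runs of 50 bases in their exons, 26.4% in H2-Q7, 21.8% in H2-Q4, 12.8% in H2-D1 and 9.63% in H2-K1 also occur in another gene, so reads could be shared among them and their separate levels are uncertain to that extent. For H2-Q7 the closest copies were H2-Q10, H2-Q5 and H2-Q6. The shared part was below 1% in Tap1, Tap2 and Psmb8 and 0% in B2m, Psmb9 and Psmb10.

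The 10 genes differed widely in level, with B2m at the top and H2-Q7 at the bottom in every group. In WT PBS the means were 4826 TPM for B2m, 823 for H2-D1, 488 for H2-K1, 82.2 for Psmb10, 50.7 for H2-Q4, 46.8 for Psmb8, 44.3 for Tap2, 32.0 for Tap1, 25.8 for Psmb9 and 7.01 for H2-Q7. The ranges of neighbours in this order did not overlap, except those of H2-Q4 with Psmb8 and of Psmb8 with Tap2. The first 3 places did not change in any group. In both LPS groups H2-Q4 moved up to the fourth place, above Psmb10, although their ranges overlapped in WT LPS (110.2 to 158 TPM against 74.3 to 118 TPM) and not in KO LPS (94.1 to 172 TPM against 84.1 to 92.5 TPM).

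**Figure D1:**
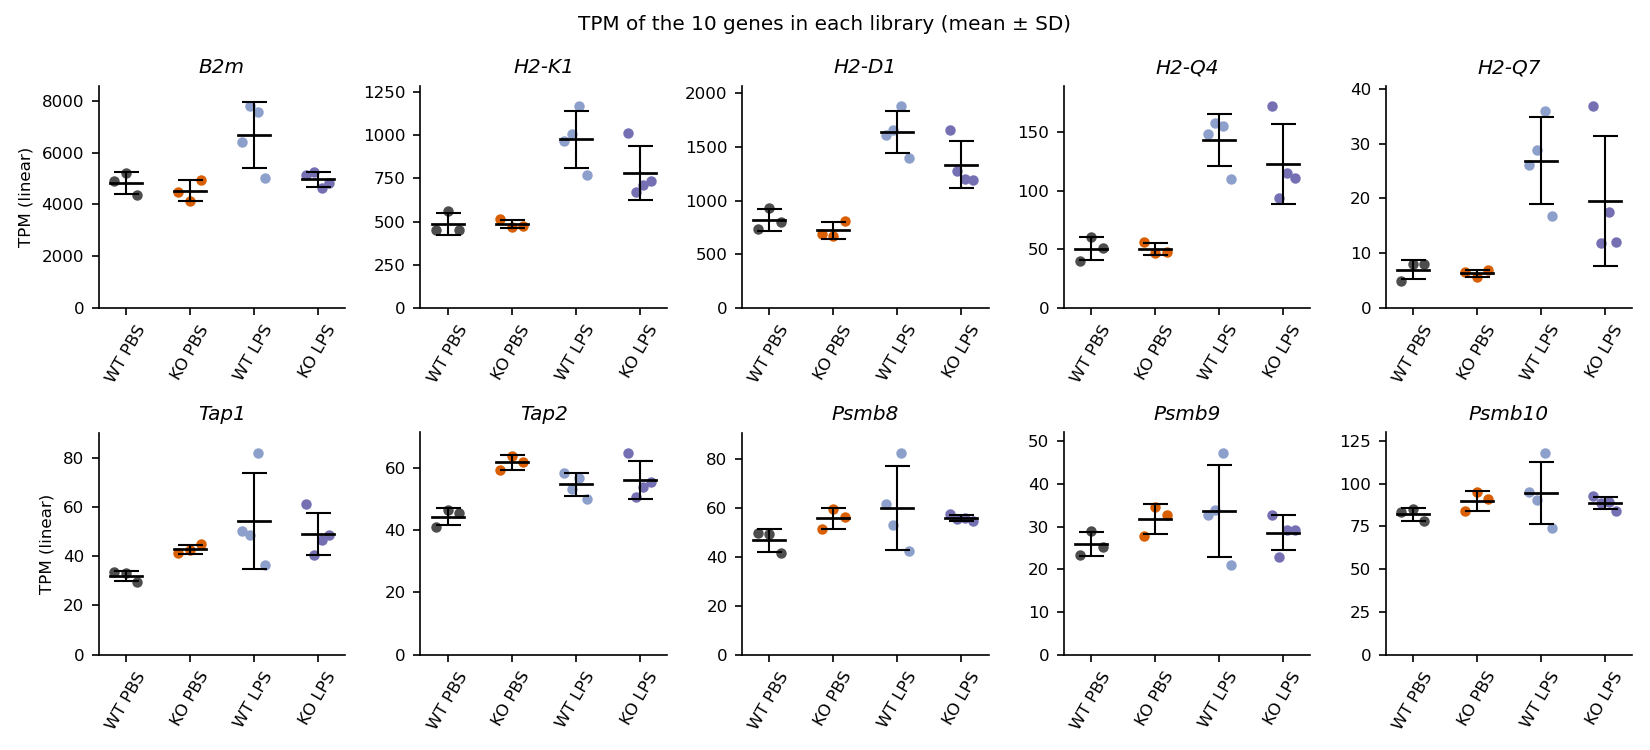
TPM (linear axis) of each of the 10 genes in every library, with 1 point per library, the group mean as a line and the SD as an error bar. The 4 heavy chain genes are higher in all LPS than in all PBS libraries of the same genotype and Tap2 is higher in all KO PBS than in all WT PBS libraries.

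The LPS libraries were compared with the PBS libraries of the same genotype to see how far the class I genes followed the treatment. In WT, 6 of the 10 genes rose: the heavy chains H2-Q7 (3.83 times the PBS mean), H2-Q4 (2.81 times), H2-K1 (2.0 times) and H2-D1 (1.99 times), and the transporter genes Tap1 (1.69 times) and Tap2 (1.23 times). In KO, 4 of the 10 rose, and they were the same 4 heavy chain genes, at 3.06, 2.45, 1.60 and 1.84 times the PBS mean in the same order. B2m and the 3 immunoproteasome genes passed the test in neither genotype. In WT 7.95% of all 18724 genes tested were called higher and 34.1% lower, and in KO 7.82% higher and 26.9% lower, so the counts of members rising stood above the background in both. In bulk libraries, a change in the number of cells of a type and a change in RNA per cell cannot be told apart. A gene is called here when its limma test on log2(TPM + 1) gives an adjusted p under 0.05 over all genes tested.

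The median change of the 10 genes was 0.57 on the log2 scale in WT, beside -0.28 over all genes, and 0.16 in KO, beside -0.22 over all genes. The balance of rises and falls over the whole table moved with the scaling: with median-of-ratios scaling the median of all genes became 0.01 in WT and 0.00 in KO, and 55.0% and 54.8% of called genes were higher, against 18.9% and 22.6% on TPM. With quantile normalisation those shares were 42.2% and 40.2%. In WT, all 10 members were called with median-of-ratios scaling and 9 with quantile normalisation, while in KO the same 4 heavy chain genes were called with either. The groups did not overlap for the 6 called genes in WT and the 4 called genes in KO, which compares with 45.9% and 40.8% of all genes in either direction.

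The classical heavy chain gene H2-K1 stood at 451, 561 and 452 TPM in the WT PBS libraries WT904, WT913 and WT914 and at 964, 1005, 1167 and 769 TPM in WT LPS 1 to 4. In KO it stood at 515, 471 and 475 TPM in KO911, KO912 and KO915 under PBS and at 1009.8, 672, 709 and 736 TPM in LPS 1 to 4. Every LPS library lay above every PBS library of its genotype, and in KO it was library 1 alone that reached the level of the upper WT LPS libraries. The fitted change of log2(TPM + 1) was 0.99 ± 0.16 (SE) in WT (adjusted p = 0.00052) and 0.66 ± 0.16 in KO (adjusted p = 0.00573).

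The other classical heavy chain gene, H2-D1, stood at 736, 934 and 799 TPM in WT PBS and at 1609.8, 1659, 1877 and 1399.9 TPM in WT LPS. Its KO values were 689, 671 and 811 TPM under PBS and 1655, 1276, 1204 and 1195 TPM under LPS. These groups were again separate, with a change of 0.99 ± 0.14 in WT (adjusted p = 0.000285) and 0.87 ± 0.14 in KO (adjusted p = 0.000547). The ratio of H2-D1 to H2-K1 was 1.69 in WT PBS, 1.49 in KO PBS, 1.69 in WT LPS and 1.71 in KO LPS, and its ranges overlapped in all comparisons.

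H2-Q4 and H2-Q7 are non-classical heavy chain genes of the Q region, where H2-Q7 encodes the Qa-2 antigen. H2-Q4 was at 40.3, 60.4 and 51.4 TPM in WT PBS, 148, 158, 155 and 110.2 TPM in WT LPS, 56.0, 46.8 and 48.0 TPM in KO PBS, and 172, 94.1, 115 and 111 TPM in KO LPS. H2-Q7 was at 5.0, 8.02 and 8.01 TPM in WT PBS, 26.0, 28.8, 36.0 and 16.8 TPM in WT LPS, 6.58, 5.69 and 6.87 TPM in KO PBS, and 36.8, 11.9, 17.5 and 12 TPM in KO LPS. In both genes the lowest WT LPS library was library 4 and the highest KO LPS library was library 1, and LPS and PBS did not overlap. The fitted changes were the largest among the 10 genes: 1.48 ± 0.19 in WT and 1.24 ± 0.19 in KO for H2-Q4 (adjusted p = 0.000166 and 0.000416), and 1.78 ± 0.34 and 1.33 ± 0.34 for H2-Q7 (adjusted p = 0.00163 and 0.00927).

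B2m, the light chain that all class I heavy chains share, stood at 4922, 5198 and 4358 TPM in WT PBS and at 6426, 7787, 7552 and 5003 TPM in WT LPS. In KO it stood at 4498, 4132 and 4951 TPM under PBS and at 5139, 5267, 4628 and 4839 TPM under LPS. WT LPS 1, 2 and 3 lay above all PBS libraries, but WT LPS 4 lay within the PBS range, and the KO groups overlapped. The change was 0.45 ± 0.18 in WT (adjusted p = 0.0531) and 0.14 ± 0.18 in KO (adjusted p = 0.586), so neither passed. The WT value lay close to the threshold: it passed in 7 of 19 other settings, among them the fit without WT LPS 4 (0.59, adjusted p = 0.0116).

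Relative to its main partners B2m was lower in the LPS libraries. The ratio of B2m to the sum of H2-K1 and H2-D1 was 3.70 ± 0.385 (SD, n = 3) in WT PBS, 3.73 ± 0.116 (n = 3) in KO PBS, 2.55 ± 0.262 (n = 4) in WT LPS and 2.39 ± 0.33 (n = 4) in KO LPS. Every LPS library (1.93 to 2.92) lay below every PBS library (3.48 to 4.15), and the genotypes overlapped under both treatments. A ratio within a library does not depend on how libraries are scaled. The 7 ratios computed here are descriptions, with no test.

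Tap1 and Tap2 encode the subunits that together form the peptide transporter. Tap1 stood at 33.4, 33.0 and 29.7 TPM in WT PBS, 50.1, 48.5, 82.0 and 36.4 TPM in WT LPS, 41.3, 42.4 and 44.9 TPM in KO PBS, and 61.0, 40.6, 46.6 and 48.4 TPM in KO LPS. In WT the LPS libraries lay above the PBS libraries, with library 3 far above and library 4 just above, whereas in KO the groups overlapped. The change of Tap1 was 0.68 ± 0.21 in WT (adjusted p = 0.0182) and 0.18 ± 0.21 in KO (adjusted p = 0.533). Without WT914 the WT value was 0.63 and no longer passed (adjusted p = 0.0554).

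Tap2 was at 41.1, 46.4 and 45.4 TPM in WT PBS, 58.4, 53.3, 56.6 and 50.1 TPM in WT LPS, 59.2, 63.9 and 61.9 TPM in KO PBS, and 64.8, 50.6, 53.8 and 55.3 TPM in KO LPS. Its WT PBS libraries were lower than all 11 others, and the KO PBS libraries were higher than all but KO LPS 1. The change with LPS was 0.29 ± 0.09 in WT (adjusted p = 0.0174) and -0.14 ± 0.09 in KO (adjusted p = 0.247), where the sign turned with median-of-ratios scaling (0.12) and with quantile normalisation (0.06). Without WT904 the WT change was 0.24 and missed the threshold (adjusted p = 0.0798). The ratio of Tap1 to Tap2 was 0.726 ± 0.0803 in WT PBS, 0.695 ± 0.0311 in KO PBS, 0.986 ± 0.319 in WT LPS and 0.872 ± 0.0564 in KO LPS, separate between LPS and PBS in KO and overlapping in WT.

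The immunoproteasome subunits replace the catalytic subunits of the standard proteasome and change which peptides it makes. Psmb8 spanned 41.4 to 49.8 TPM in WT PBS, 42.4 to 82.6 TPM in WT LPS, 51.3 to 59.6 TPM in KO PBS and 54.8 to 57.6 TPM in KO LPS. Psmb9 spanned 23.4 to 28.9, 21.0 to 47.3, 27.9 to 34.6 and 22.9 to 32.8 TPM in the same order of groups, and Psmb10 spanned 78.0 to 85.4, 74.3 to 118, 83.7 to 94.8 and 84.1 to 92.5 TPM. In all 3 genes WT LPS 4 reached down into or below the WT PBS range and WT LPS 3 was the highest of all libraries, so the groups overlapped. The changes were 0.31, 0.32 and 0.18 in WT (adjusted p = 0.141, 0.229 and 0.231) and 0.01, -0.16 and -0.02 in KO (adjusted p = 0.984, 0.596 and 0.927). Leaving out WT LPS 4 brought all 3 past the threshold in WT, at 0.46, 0.52 and 0.29, and with them B2m, so that all 10 genes were then called. Leaving out WT LPS 3 instead lowered the 3 values to 0.15, 0.14 and 0.07, none of which passed (adjusted p = 0.365, 0.555 and 0.587).

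Against the constitutive subunits that they replace, 2 of the 3 immunoproteasome subunits were higher in all LPS than in all PBS libraries of the same genotype. The ratio of Psmb8 to Psmb5 was 0.292, 0.399 and 0.354 in WT PBS, 0.568, 0.545, 0.634 and 0.40 in WT LPS, 0.387, 0.449 and 0.43 in KO PBS, and 0.627, 0.528, 0.58 and 0.645 in KO LPS. The separation was wide in KO, but in WT the ratio in WT LPS 4 (0.40) barely exceeded that in WT913 (0.399). The ratio of Psmb10 to Psmb7 was 2.12 ± 0.113 in WT PBS, 2.36 ± 0.168 in KO PBS, 2.75 ± 0.25 in WT LPS and 3.09 ± 0.476 in KO LPS, with no overlap between treatments in either genotype. The ratio of Psmb9 to Psmb6 was 0.232 ± 0.0322, 0.308 ± 0.0127, 0.357 ± 0.0863 and 0.323 ± 0.0598 in the same order, overlapping between treatments. It was the only 1 of these 3 ratios that separated the genotypes under PBS, where KO (0.295 to 0.32) lay above WT (0.20 to 0.264).

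**Figure D2:**
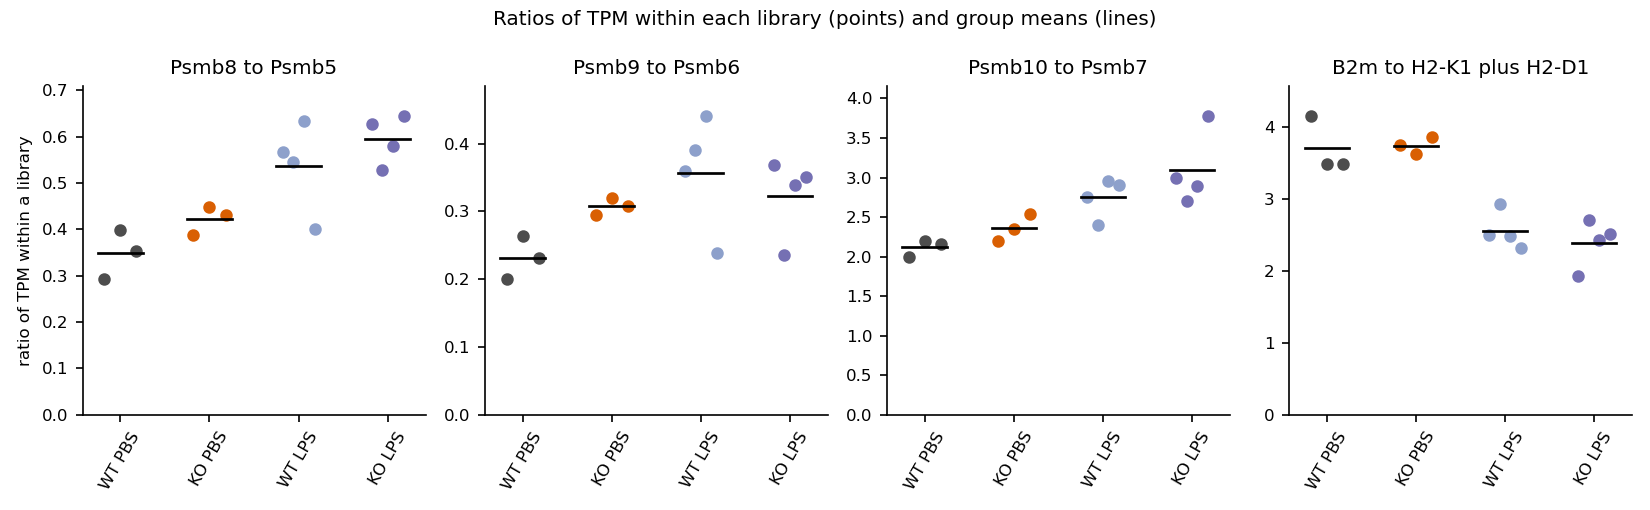
Ratios of TPM within each library (points, linear axis from 0), with group means as lines, for the immunoproteasome subunits over the constitutive subunits they replace and for B2m over the sum of H2-K1 and H2-D1. Psmb8 to Psmb5 and Psmb10 to Psmb7 are higher and B2m to its heavy chains is lower in the LPS than in the PBS libraries of the same genotype, while Psmb9 to Psmb6 overlaps between treatments.

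All 3 constitutive subunits had lower fitted values with LPS on the TPM scale, but few passed. In WT, Psmb6 fell by 0.26 (adjusted p = 0.0255), and Psmb5 (-0.29) and Psmb7 (-0.18) did not pass. In KO, Psmb5 fell by 0.48 (adjusted p = 0.0107), and Psmb6 (-0.21) and Psmb7 (-0.38) did not. With median-of-ratios scaling none of the 3 was called, and all 3 values in WT were positive, so the direction of these genes depends on the scaling while the ratios above do not.

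Between KO and WT under PBS, Tap2 was the only class I gene of the 10 that passed the test. In KO it was higher by 0.47 ± 0.09 on the log2 scale (adjusted p = 0.0434). Its mean was 44.3 ± 2.8 TPM (SD, n = 3) in WT PBS and 61.6 ± 2.36 TPM (SD, n = 3) in KO PBS, 1.39 times as high. Beside this 1 of 10, 0.796% of all genes were called higher and 0.224% lower. The call lay at the edge: leaving out any 1 of the 6 PBS libraries kept the change between 0.42 and 0.50 but moved the adjusted p to between 0.0974 and 0.151, and over 17 other settings it passed in 7.

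Tap1 (0.41 ± 0.22, adjusted p = 0.39) and Psmb8 (0.25 ± 0.18, adjusted p = 0.518) did not pass, although every KO PBS library lay above every WT PBS library for them as for Tap2. These 3 genes of 10 without overlap compare with 25.8% of all genes. Psmb9 (0.29, adjusted p = 0.554) and Psmb10 (0.13, adjusted p = 0.661) had higher fitted values too, with overlapping groups. The heavy chain genes and B2m overlapped: H2-K1 and H2-Q4 were at 0.00, H2-D1 at -0.18, H2-Q7 at -0.10 and B2m at -0.09. The median of the 10 was 0.06, beside 0.00 over all genes. With median-of-ratios scaling 67.4% of called genes were higher, against 78.0% on TPM. The pituitary transcripts of WT914 moved with this comparison, and without that library Tap2 stood at 0.49 (adjusted p = 0.0997).

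Under LPS none of the 10 genes was called between the genotypes, and 9 of 10 fitted values were negative. The median was -0.21, beside 0.07 over all genes. Beside this, 0.256% of all genes were higher and 0.24% lower in KO. Voom on the recovered reads also called 0 of 10. The 3 smallest p belonged to B2m (-0.41 ± 0.16, adjusted p = 0.347), H2-D1 (-0.30 ± 0.13, adjusted p = 0.392) and H2-K1 (-0.32 ± 0.15, adjusted p = 0.413). The deviations of these genes also correlated between libraries, so they are not separate results. Mean B2m was 6692 ± 1273 TPM (SD, n = 4) in WT LPS and 4968 ± 289 TPM (SD, n = 4) in KO LPS, and the groups overlapped because WT LPS 4 (5003 TPM) lay within the KO range.

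H2-Q7 had the largest fitted difference, -0.54 ± 0.32 (adjusted p = 0.549), which became -0.89 without KO LPS 1 (adjusted p = 0.161). H2-Q4 was at -0.23, Psmb9 at -0.19, Tap1 at -0.09, Psmb10 at -0.07, Psmb8 at -0.06 and Tap2 at 0.03, all with adjusted p of 0.659 or more. No member was without overlap, beside 6.18% of all genes. Tap1, Psmb8 and Psmb10 turned positive without WT LPS 3 (0.12, 0.11 and 0.04), and Tap2 turned negative with median-of-ratios scaling (-0.06) and without KO LPS 1 (-0.04). With that scaling 15.7% of called genes were higher in KO, against 51.6% on TPM. With a standard error of 0.16 for B2m and 0.32 for H2-Q7, differences of the size seen were not detectable in these libraries.

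**Figure D3:**
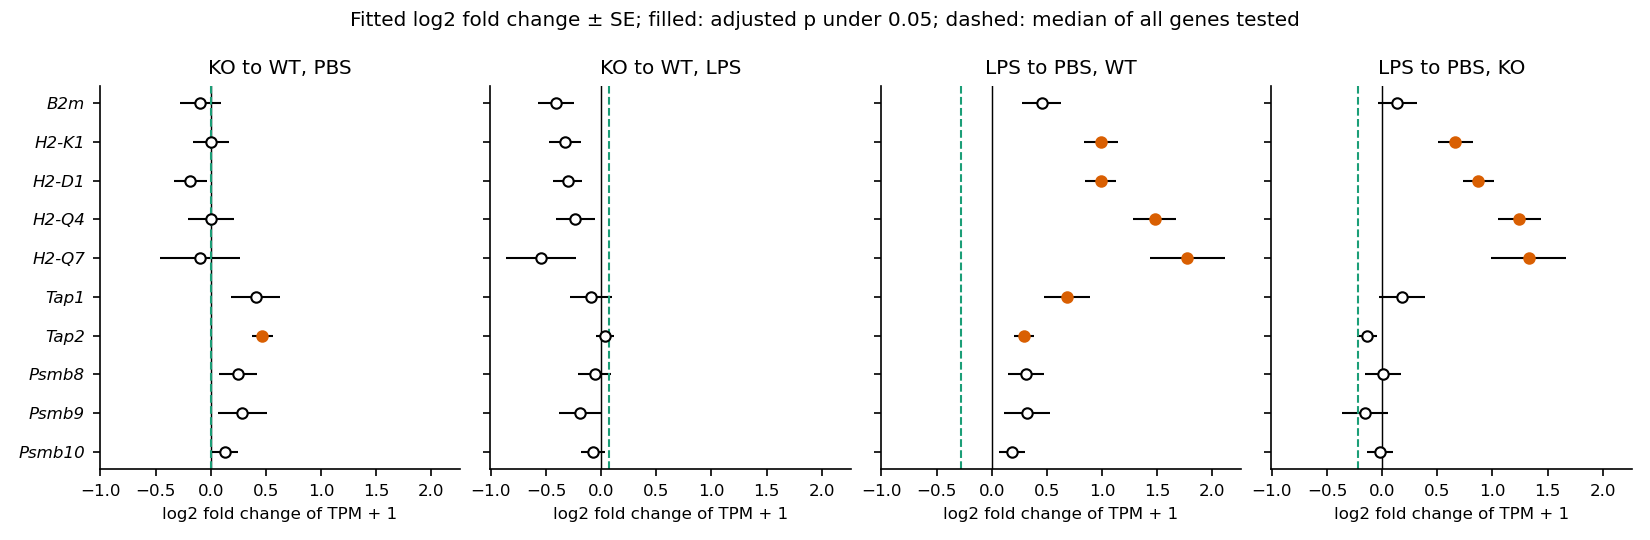
Fitted log2 fold change of TPM + 1 with its standard error for the 10 genes in the 4 comparisons, filled where the adjusted p was under 0.05, with the median of all genes as a dashed line. In the LPS comparisons the heavy chain genes lie to the right of the median in both genotypes, and in the KO to WT comparisons only Tap2 under PBS is filled.

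Whether the treatment difference itself depended on the genotype was tested by the interaction term, the change in KO minus the change in WT. All 10 values were negative, with a median of -0.32 beside 0.05 over all genes, but none was called, nor was any of the 18724 genes (0.0%). Tap2 had the smallest p of the members (-0.43 ± 0.13, adjusted p = 0.412). Tap1 (-0.50 ± 0.29), Psmb9 (-0.48 ± 0.29) and H2-Q7 (-0.45 ± 0.48) had larger values and larger errors, with adjusted p = 0.594, 0.609 and 0.784. The rise of Tap1 and Tap2 in WT alone is thus not shown to differ from KO. These values share their libraries with the comparisons above and are no separate evidence. Over 25 other settings no member was called, and the adjusted p of Tap2 ran from 0.182 to 0.756.

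The class I genes also varied together between libraries of the same group. After each library's deviation from its group mean was taken, the 45 pairs of members had Pearson correlations from 0.22 to 0.98 over 14 libraries, with a median of 0.68. The closest pairs were Psmb8 and Psmb10 (0.98), H2-Q4 and H2-Q7 (0.92), H2-K1 and H2-Q4 (0.91) and the head-to-head pair Tap1 and Psmb9 (0.90), and the loosest was B2m and Tap2 (0.22). The points share library depth and scaling, and the Q genes may share reads. WT LPS 3 was above its group mean in all 10 genes (median deviation 0.31), WT LPS 4 in 0 of 10 (-0.38), and KO LPS 1 in all 10 (0.27).

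The same libraries stood apart in a list of 29 interferon response genes that holds none of the 10. There WT LPS 3 had a median deviation of 0.96 with all 29 genes above the group mean, WT LPS 4 of -0.58 with 0 of 29, and KO LPS 1 of 0.59 with 27 of 29. In WT LPS 3 the members farthest above their group were Tap1 (0.65), Psmb9 (0.53) and Psmb8 (0.50), whereas in KO LPS 1 the heavy chain genes were (0.33 for H2-D1 to 1.03 for H2-Q7), with Psmb8 at 0.04 and Psmb10 at 0.06. The constitutive subunits deviated by a median of 0.23 in WT LPS 3, -0.07 in WT LPS 4 and 0.00 in KO LPS 1. Of 16 other proteasome core subunits and assembly factors, all 16 were above the group mean in WT LPS 3 (median 0.16). In WT LPS 4 it was 1 of 16 (-0.18), and in KO LPS 1 it was 6 of 16 (-0.04). Of 10 MHC class II genes, 7 were above it in WT LPS 3 (0.13), 0 in WT LPS 4 (-0.32) and 6 in KO LPS 1 (0.36). The deviations of WT LPS 3 and WT LPS 4 are thus not particular to class I and interferon response genes. In KO LPS 1 the constitutive and other core subunits did not share the shift, and the class II genes did so in part. The causes were not tested. Leaving out WT LPS 3 and KO LPS 1 together, a setting chosen after the values were seen, left 6 members called in WT and 4 in KO, the same genes as with all libraries.

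**Figure D4:**
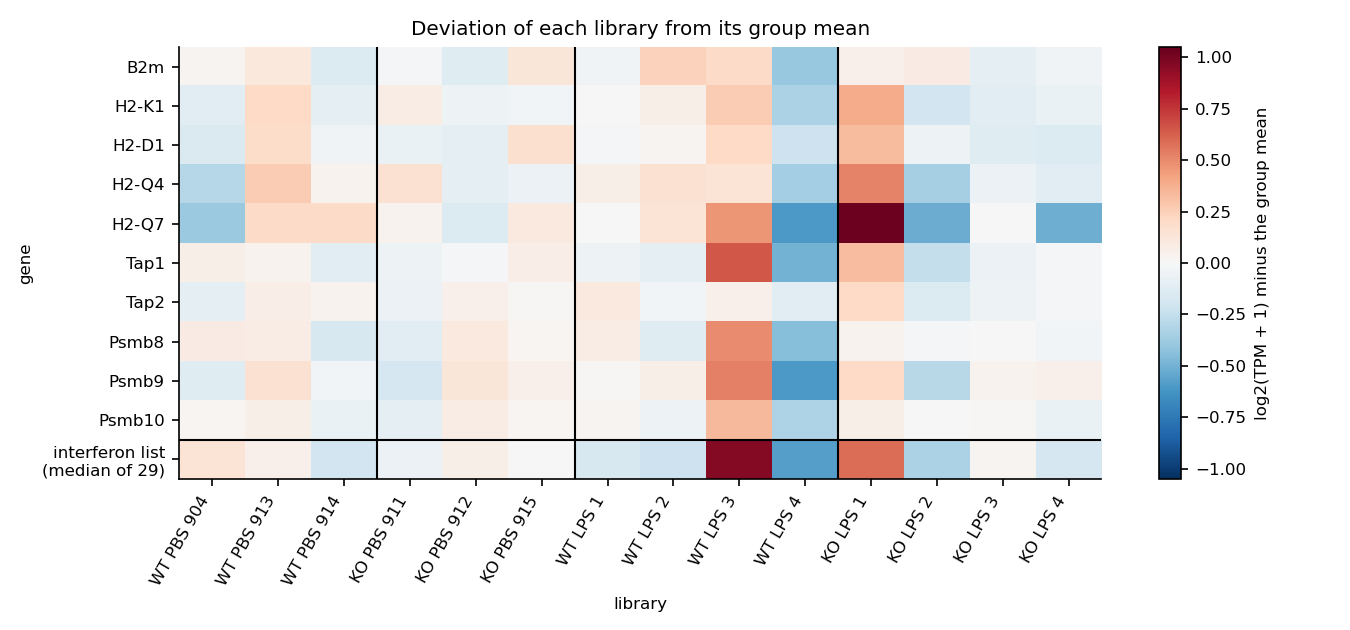
Deviation of log2(TPM + 1) from the group mean for each of the 10 genes (rows) in each library (columns), on a colour scale from blue (below) to red (above), with the median of 29 interferon response genes in the last row. WT LPS 3 and KO LPS 1 are above their group mean in all 10 genes and WT LPS 4 is below it in all 10.

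Outside the 10, and among genes whose mean reached 5 TPM, the deviations most like those of the members were those of C9orf72 (mean correlation 0.78), Nasp (0.77), Mta2 (0.76), Rbm38 (0.76) and Trmt44 (0.76), over 14 libraries and 12213 genes. These are given as a description only. Beside the median of 0.68 over the member pairs, they show that varying with the members was not particular to class I genes.

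Of 20 further class I and class I-like genes, 15 were in the table and 11 were expressed enough to be tested. With LPS, H2-Q6, a Q region gene that shares sequence with H2-Q4 and H2-Q7, rose by 1.42 ± 0.39 in WT (adjusted p = 0.012) and 1.3 ± 0.39 in KO (adjusted p = 0.0215), and H2-T22 rose in WT by 0.58 ± 0.18 (adjusted p = 0.0218). Mr1, which presents vitamin metabolites, fell by 0.49 in WT (adjusted p = 0.0277), and H2-T24 and Cd1d1, the lipid-presenting molecule, fell in KO by 0.73 and 0.44 (adjusted p = 0.0177 and 0.0275). With median-of-ratios scaling no gene of this list was called lower, 4 were higher in WT and 3 in KO. The median of the 11 was 0.04 in WT and -0.02 in KO, beside the -0.28 and -0.22 of all genes. None was called between the genotypes under either treatment, with the smallest p for H2-T23 under PBS (-0.25, adjusted p = 0.277) and for Hfe under LPS (-0.41, adjusted p = 0.223).

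Of the 15 genes that load and trim the peptides, only Tpp2, a cytosolic peptidase, was called higher with LPS in WT (0.27, adjusted p = 0.0429), and 4 were lower, led by the peptidase Thop1 (-0.67, adjusted p = 0.00382), the chaperone Canx (-0.37, adjusted p = 0.00574) and the glucosidase subunit Ganab (-0.26, adjusted p = 0.00739). In KO none was higher and 9 were lower, led by Canx (-0.71, adjusted p = 0.000104), Calr (-0.73, adjusted p = 0.000328) and Ganab (-0.42, adjusted p = 0.000492). Tapbp, the tapasin that links TAP to the heavy chain, was at 0.11 in WT (adjusted p = 0.459) and fell by 0.36 in KO (adjusted p = 0.0239). The medians were -0.15 and -0.38, beside the -0.28 and -0.22 of all genes. With median-of-ratios scaling the counts became 4 higher and 0 lower in WT and 1 higher and 2 lower in KO, so the falls of this list depend on the scaling.

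Between the genotypes none of these 15 was called under PBS, although 9 of 15 were higher in KO without overlap (25.8% of all genes in either direction). Their median was 0.16, and the smallest p was that of Hspa5 (0.51, adjusted p = 0.0926), the chaperone BiP. Under LPS none was called or without overlap, and Tapbp had the smallest p (-0.27, adjusted p = 0.309). In the interaction 13 of 15 values were negative and none was called.

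Of the remaining proteasome core subunits and assembly factors, 0 of 16 were called higher and 2 lower with LPS in WT, Psmg1 (-0.61) and Psma3 (-0.33). In KO, Psma6 rose (0.30, adjusted p = 0.0357), and Psmg1, Psmg2 and Psma3 fell by 0.86, 0.65 and 0.36. With median-of-ratios scaling 6 were higher in either genotype, with 0 lower in WT and 2 in KO. The assembly chaperone Psmg2 was the 1 gene of the 16 called between genotypes, higher in KO under PBS (0.57 ± 0.12, adjusted p = 0.0474), and was not called with median-of-ratios scaling.

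Among 5 proteasome activators and regulators, Psme2, a subunit of the interferon-inducible PA28 cap, rose with LPS in WT (0.60 ± 0.17, adjusted p = 0.0146), from 105 to 115 TPM under PBS to 124 to 255 TPM. In KO it was at 0.28 (adjusted p = 0.236). Its partner Psme1 did not pass (0.28 in WT, adjusted p = 0.12, and 0.06 in KO, adjusted p = 0.781). Psme4 and the inhibitor Psmf1 fell in both genotypes, by 0.32 and 0.70 in WT and by 0.30 and 0.36 in KO. With median-of-ratios scaling 1 of the 5 was called lower in WT and 0 in KO. The ratio of Psme2 to Psme3, the nuclear activator subunit, was 1.20 ± 0.065 in WT PBS, 1.26 ± 0.0685 in KO PBS, 1.92 ± 0.565 in WT LPS and 1.69 ± 0.18 in KO LPS, without overlap between treatments.

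Of 19 regulators of class I genes, 7 were called higher and 4 lower with LPS in WT, and 2 higher and 4 lower in KO. Nlrc5, the class I transactivator, rose from 8.11 to 9.32 TPM in WT PBS to 17.1 to 53.3 TPM in WT LPS (1.42 ± 0.33, adjusted p = 0.00459) and from 8.11 to 9.14 TPM in KO PBS to 12.8 to 28.5 TPM in KO LPS (0.99 ± 0.33, adjusted p = 0.0329). Without WT914 and KO LPS 3, Nlrc5 was still called in WT but no longer in KO. Stat3 rose in both genotypes (0.94 and 0.96, adjusted p = 0.000244 and 0.000166). Stat2, a transcription factor of the type I interferon response, rose by 1.22 ± 0.21 in WT (adjusted p = 0.001) and was at 0.58 in KO (adjusted p = 0.0521). Irf1 (0.41 and 0.48) did not pass in either genotype. It was called higher in both with median-of-ratios scaling, with quantile normalisation and with voom, so its call depends on the setting.

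The NF-Y subunit Nfya and the RFX subunit Rfxap, parts of the complex through which Nlrc5 acts, fell in WT by 0.31 and 0.46 and in KO by 0.60 and 0.42, with Nfyc lower in WT (-0.30) and Irf8 in KO (-0.86) among the 3 smallest p. Irf8 was also called lower in WT. The NF-Y subunit Nfyb went the other way. It was called higher in WT but not in KO, and with median-of-ratios scaling it was called higher in both. With median-of-ratios scaling 11 regulators were higher and 0 lower in WT, and 8 higher and 2 lower in KO. Between the genotypes none was called. The smallest p was that of Nfya under PBS (0.30, adjusted p = 0.0712) and of Stat2 under LPS (-0.82, adjusted p = 0.0922), whose KO LPS libraries (36.5 to 51.8 TPM) lay below all WT LPS libraries (60.9 to 129.9 TPM).

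Of 7 interferon receptors and kinases, 4 rose with LPS in WT: Ifnar2 (0.34), Ifngr2 (0.45), Ifnar1 (0.44) and Jak2. In KO, Jak2 rose as well (0.56, adjusted p = 0.0135) and Ifngr1 fell by 0.39 (adjusted p = 0.0468), a fall that median-of-ratios scaling did not call. None was called between the genotypes, with the smallest p for Ifngr2 under PBS (0.45, adjusted p = 0.081) and Jak1 under LPS (-0.24, adjusted p = 0.178).

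Of the interferon response genes, 25 of 29 rose with LPS in WT (median 1.43) and 15 of 29 in KO (median 0.90), and none fell. With voom on the recovered reads the counts were 24 in WT and 8 in KO, and without WT914 and KO LPS 3 they were 19 and 10. The guanylate-binding protein gene Gbp5 rose from 13.4 to 22.8 TPM to 97.9 to 170.1 TPM in WT (2.87 ± 0.23, adjusted p = 5.14e-06) and from 15.3 to 16.1 TPM to 79.2 to 151 TPM in KO (2.60 ± 0.23, adjusted p = 1e-05). Between the genotypes under PBS 22 of 29 values were negative, with a median of -0.29, and none was called. There 9 of 29 were lower and 1 higher in KO without overlap, beside 25.8% of all genes in either direction. Between the genotypes under LPS 28 of 29 values were negative, with a median of -0.71, and none was called. The smallest p was that of Ifit2 (-1.76, adjusted p = 0.126), which spanned 39.8 to 262 TPM in the WT LPS and 16.0 to 37.5 TPM in the KO LPS libraries. Without WT LPS 3 and KO LPS 1 the median was -0.58, with 2 of 29 called lower.

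No MHC class II gene rose with LPS. In WT 8 of 10 fell, with H2-Ob (-0.51), H2-Eb1 (-1.50) and the invariant chain gene Cd74 (-1.27) at the smallest p. In KO 6 of 10 fell, led by H2-DMa (-0.61), Cd74 (-1.03) and H2-DMb1 (-0.37). With median-of-ratios scaling 5 fell in WT and 0 in KO. Between the genotypes the peptide-exchange genes H2-DMa and H2-DMb2 were higher in KO under PBS (0.89 and 1.01, adjusted p = 0.00973 and 0.0407) and under LPS (0.64 and 1.28, adjusted p = 0.0254 and 0.0102). The inhibitor gene H2-Ob was lower (-1.3 and -0.89, adjusted p = 0.00129 and 0.0102). Without WT914 and KO LPS 3, the calls were 0 higher and 1 lower under PBS and 1 higher and 0 lower under LPS. Leaving out those libraries also changed other lists with LPS in WT, where 1 further class I gene, 0 loading genes, 0 activators, and 2 receptors and kinases were then higher. In KO 1 regulator was higher without them.

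Markers of other cells that express class I genes also differed between treatments. The sum of 8 monocyte markers was 446 to 1125 TPM in WT PBS, 451 to 579 TPM in KO PBS, 1326 to 2400.4 TPM in WT LPS and 1390.2 to 1976 TPM in KO LPS, and 7 of the 8 rose with LPS in each genotype. The sum of 9 neutrophil markers was 5618 to 23288, 5066 to 8012, 9154 to 21592 and 11356 to 24676 TPM in the same order, with 1 of 9 called higher in WT and 5 in KO. The 15 T and NK cell markers summed to 25.1 to 51.2, 20.9 to 25.4, 38.5 to 79.4 and 45.7 to 124 TPM, the highest being KO LPS 1, with Gzma and Gzmb higher in WT and those and Ncr1 in KO. None of these lists had a marker at 0 in all libraries.

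The sum of the 12 microglia markers was 28249.7 to 36409 TPM in WT PBS and 19376 to 23936 TPM in WT LPS, where 7 of 12 fell, and 30813 to 32689 TPM in KO PBS and 14416 to 20072 TPM in KO LPS, where 12 of 12 fell. Between the genotypes under LPS all 12 microglia values were negative, with a median of -0.38 and 2 called, Tmem119 and Fcrls. Under PBS 8 were positive and 4 negative (median 0.04), with Tmem119 called lower and Olfml3 higher in KO. Cre is driven from the Tmem119 locus in all KO libraries, so the lower Tmem119 cannot be told apart from an effect of that allele. B cell markers summed to 211 to 614 TPM and border macrophage markers to 775 to 1673 TPM over all groups. In these lists and in the dendritic cell markers no more than 1 gene was called higher with LPS in either genotype. Called lower were Ighm in both genotypes, Ighd in WT and the border macrophage marker Stab1 in both. The dendritic cell sum was 41.8 to 75.1 TPM in WT PBS and 16.0 to 30.4 TPM in WT LPS. In KO it was 50.4 to 68.3 TPM under PBS and 17.8 to 38.9 TPM under LPS. Of the dendritic cell markers 2 were called lower with LPS in each genotype. The 12 endothelial and mural cell markers summed to 1172 to 1931 TPM in WT PBS and 771 to 1346 TPM in KO PBS. Between the genotypes under PBS all 12 values were negative, with a median of -0.72, and none was called. Under LPS 11 of 12 were negative (median -0.17), again with none called. With LPS 0 were called higher and 2 lower in WT, and 1 higher and 1 lower in KO. The part of all these cells in the class I values was not tested.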

How the data were processed

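RNA of microglia isolated with magnetic beads was sequenced in 14 libraries. The submitters' processing notes name the aligner STAR (version 2.7.10b), featureCounts (2.0.1), cutadapt (4.4) and FastQC (0.11.9). The notes name a human build although the gene IDs are mouse, so sequences and coordinates are those of the RefSeq reference (GRCm38.p6), not of the files. The authors deposited TPM per gene, which sum to 1000000 per library. Whether reads were counted by strand is not given in the sources used here. Symbols were matched for 41588 of 41739 IDs, 151 had none, and 0 columns lay outside the sample labels.

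Read totals were estimated from the TPM values and GENCODE M21 exon lengths: 98.4% to 98.6% of values were whole reads within a tolerance of 0.02. The log2 of TPM plus 1 was fitted by limma (3.58.1, run in R 4.3.3) on the means of the 4 groups, with an intensity trend. Benjamini-Hochberg adjustment covered 18724 genes, those that reached 1 TPM in 3 or more libraries. All 10 members passed this filter. Fold changes on this scale understate those of low genes. The fit was tested on simulated data. Rises and falls in the text are calls at an adjusted p under 0.05, from this test unless another setting is named.

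From each related list, up to 3 called genes per direction and comparison were named by smallest p, or else the 1 gene with the smallest p. Nlrc5, Irf1, Nfyb, Psmb5, Psmb6, Psmb7, Psme1, Psme2, Tapbp and Rheb were named as well. The values of 1 further regulator are not reported here. The members and lists were chosen with earlier results of these data known. Of the other settings, pseudocounts, filters, scalings, library weights, voom on the recovered reads and left-out libraries were tried.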

Additional observations from a re-analysis of the deposited data

How the results depend on the processing

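The 4 heavy chain genes were called with LPS in both genotypes in all 19 other settings. The count of members called with LPS in WT, 6, became 10 with median-of-ratios scaling and ran from 5 to 10 with 1 library left out, the 10 being without WT LPS 4. In KO it was 4 in every left-out fit and 5 with voom. Under PBS the 1 call between genotypes, Tap2, became 0 without a filter, without the intensity trend, with voom, without WT914 and KO LPS 3 together, and with any 1 library left out (0 to 0). Under LPS between genotypes and in the interaction, members called were 0 in all settings. The replicate block on the LPS numbers 1 to 4 also gave 0 members, with 23 genes called instead of 93. Same-numbered libraries correlated at -0.09 to 0.06 in their deviations, so the numbers were not taken to pair them. Leaving out WT LPS 3 and KO LPS 1 together was chosen after seeing the data.

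Over all genes, calls between genotypes ran from 8 to 999 (191) under PBS and from 0 to 315 (93) under LPS, and calls with LPS from 5493 to 8924 (7866) in WT and from 4252 to 7384 (6494) in KO. In the interaction they ran from 0 to 3 (0). The causes were not tested. Of the values of single members and ratios under planned settings, 968 kept their call or, where never called, shifted by less than their standard error. For ratios the SD took the place of the standard error. Of the others, 23 shifted by more, 19 came to pass and 14 ceased to pass. Over all settings 43 values that passed in neither setting changed sign, whatever the size of the shift. With 3 or 4 libraries a group, the number of libraries limits the precision, and the read totals are estimates.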
